A study of Rattus norvegicus with 8 samples.

Results

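Axon guidance ligands and receptors were followed across 8 rat retinas: the ephrins and Eph receptors, the semaphorins with plexins and neuropilins, the Slits with Robos, and the netrins with Dcc and the Unc5 receptors. Members were taken by gene name on the array, which gave 66 genes among 26334, read by 83 probes and 137 spots on each array. Lister Hooded female rats aged 8 weeks were either sham operated (CTR), in whom the nerve was exposed but the forceps stayed unclosed, or had the right optic nerve crushed (ONC), and retinas were taken 2 weeks later. Each label has 4 retinas, each profiled alone in 1 channel of 4 Agilent arrays. Plxna4 and Unc5d were not analysed here.

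These proteins steer growing axons by attraction or repulsion. Ephrins are bound to the cell surface and signal through Eph receptors, which sets the map of retinal axons in the brain. Semaphorins act through plexins, the secreted class 3 members with neuropilins as partners, while Slits act through Robos and netrins through Dcc and Unc5, and several of them guide retinal ganglion cell (RGC) axons to the optic disc and across the chiasm.

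Labels and methods differ on the layout of the dyes. By the labels, Cy5 carried every CTR retina and Cy3 every ONC retina, with the same number sharing an array. Dye and condition cannot be told apart under that layout. The methods pair retinas of the same group, and the 2 sources give the same dye for CTR2, CTR4, ONC1 and ONC3 alone. RGC markers also went against the labels in most channels. Of 17 listed markers 16 were found and 13 passed the filter on dim spots, with Pou4f3, Isl2 and Ebf3 failing it, and the summed linear level of the 13 was 17.6, 47.6, 20.2 and 26.3 for CTR1, CTR2, CTR3 and CTR4. It was 55.4, 54.8, 56.1 and 21.8 for ONC1, ONC2, ONC3 and ONC4, with Stmn2 the brightest marker. In ONC 12 of the 13 were higher and 1 lower, with a median difference of 1.15 on the log2 scale, and limma called 1, Isl1 (0.64, adjusted p = 0.0418). That call was lost when any channel other than ONC2 was left out, since limma then called 0 of all genes. Most markers were thus high in CTR2 and low in ONC4, but Isl1, at 0.73 to 0.98 over the CTR channels and 1.48 to 1.51 over the ONC channels, was not, and CTR2 was not the highest CTR channel for Tubb3 and Gap43 either. The direction of all but Gap43 between labels is opposite to the loss of RGCs that the study describes. By the summed level, CTR2 (high) and ONC4 (low) alone lay as that loss would have them, and the other channels did not. Channels are therefore called by their labels throughout, and fewer cells of a type cannot be told apart from less RNA per cell.

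Of the 66 genes, 52 passed the filter, which acts on single spots and keeps a gene with at least 1 spot at 2 times the background or more in all 8 channels and with no outlier flag. Among the other 14, a dim spot kept out 13 (Efna5, Epha1, Epha6, Ephb4, Nrp2, Ntn1, Ntn3, Plxna3, Plxnb3, Sema3d, Sema3g, Sema4d and Sema5b), and Robo4, a receptor of blood vessels, was bright but carried an outlier flag. Median foreground was 468.2, 626.0, 446.6 and 468.1 for the CTR channels in order of number, and 337.3, 494.7, 331.9 and 218.1 for the ONC channels. Ntn1, the netrin of the optic disc, was not well above background in any channel, at 1.11 to 2.89 times the background. Efna5, an ephrin of the retinal map, was well above background only in CTR1 and ONC1, both on array 1, where its spot stood at 3.76 and 27.42 times the background. It lay between 1.31 and 2.95 times in the other 6 channels, so no fold is given for either gene.

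No guidance gene was called as different between the labels by the planned test. limma called 0 of the 52 genes at an adjusted p under 0.05, beside 0.497% of all 16307 genes (81 genes), and 5 of the 52, or 9.62%, had an unadjusted p under 0.05, beside 18.6% of all genes. In ONC 32 members (61.5%) were higher and 20 lower, beside 47.4% of all genes higher. Their median log2 fold change was 0.05, within -0.41 to 0.54, and the median over all genes was -0.01. That of the members turned to -0.021 without CTR2 and -0.0032 without CTR1, and was 0.11 without ONC2, so no direction of the list is read from it. In these settings the median over all genes was -0.041, -3.8e-05 and 0.0079. The criterion of the methods, which joins a test of each gene to a fold threshold drawn from the variability of each gene, was met by 0 members and by 3.13% of all genes. Its test alone passed 3 members (5.77%) at the threshold of the methods, beside 16.4% of all genes, and 0 of either after Benjamini-Hochberg adjustment. With the array as a block, limma called 3 members (5.77%), Efna3, Sema6a and Plxnb2, beside 7.69% of all genes, a share of members no larger than the background. Without loess 13 members (25.0%) were called, all higher in ONC, where 19.6% of all genes were called. These were Dcc, Efna2, Efnb2, Ephb1, Ephb2, Nrp1, Ntn5, Plxnc1, Robo1, Sema4b, Sema4c, Sema6a and Unc5b. The ONC and CTR channels differed in the same direction on all 4 arrays for 21 members (40.4%) and for 39.4% of all genes, so that such a run is common here. Leaving out 1 channel turned the fold change or moved it by over 1.5 times for 21 of the 27 genes given singly.

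**Figure D1:**
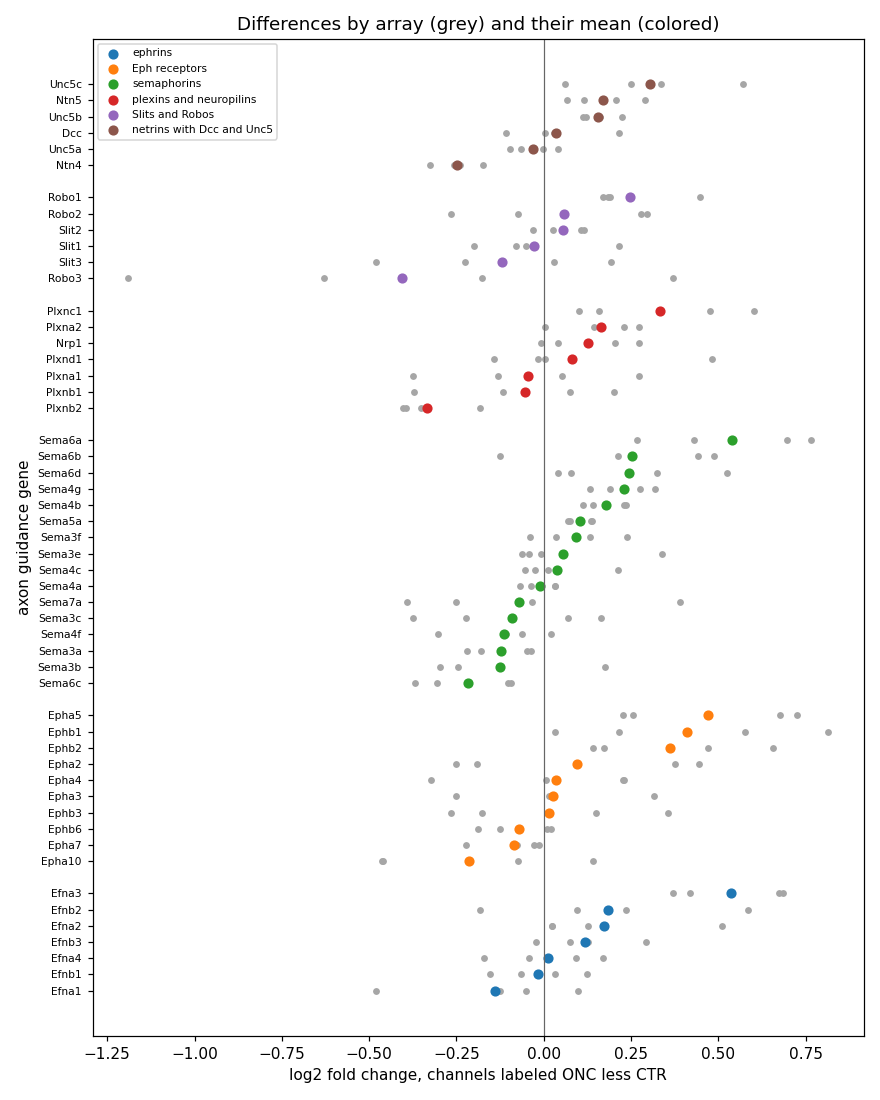
Log2 fold change (x axis, channels labeled ONC less CTR) of the 52 guidance genes that passed the filter, by family. Grey points are the 4 arrays and colored points their mean, and the means lie between -0.41 (Robo3) and 0.54 (Sema6a and Efna3).

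The 3 genes called with the block were each read by a single probe, and the first 30 bases of these probes are shown so that the measured transcripts can be placed (array design build rn4, lower case throughout).
Sema6a: ataagggactcattgataattctaactcag
Efna3: cccagatgttttcaaacctgctttatatct
Plxnb2: aagatgcagttggccttccgcctgcagcag
The whole probes lie at chr18:41545652-41545711 for Sema6a, chr2:181495457-181495516 for Efna3 and chr7:127457928-127457987 for Plxnb2, all on the minus strand. Where they fall within the genes was not analysed here.

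Among the ephrins, 7 of 8 genes passed, 5 higher in ONC and 2 lower, and the median log2 fold change was 0.12. Efna3, a membrane-anchored ligand of EphA receptors, had log2 levels relative to the channel median of -1.16, -0.71, -1.18 and -1.98 in the CTR channels (mean -1.26 ± 0.53, SD, n = 4) and -0.48, -0.35, -0.49 and -1.56 in the ONC channels (mean -0.72 ± 0.56). It was lowest in CTR4 and ONC4, and the labels overlapped. The ONC channel was the higher on 4 of 4 arrays, by 0.67, 0.37, 0.69 and 0.42. Its log2 fold change of 0.54 (SE, the standard error, 0.32) was not called by limma (adjusted p = 0.415), but was with the array as a block (SE 0.08, adjusted p = 0.0322, and 0.0322 to 0.974 over all alternatives). It was 0.30 without CTR4 and 0.82 without ONC4. Efnb2, a transmembrane ephrin with a role at the chiasm, was at -2.72, -3.18, -3.25 and -3.11 in the CTR channels and -2.91, -3.08, -3.02 and -2.52 in the ONC channels. These values overlapped, with a difference of 0.18 on the log2 scale (SE 0.16, adjusted p = 0.578 by limma). It was 0.065 without ONC4, 0.12 without CTR3, 0.30 without CTR1 and 0.61, then called, without loess. Without CTR2 and ONC4 together it was only 0.028.

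Of 13 Eph receptors, 10 passed, 7 higher and 3 lower, with a median log2 fold change of 0.03. Epha5, a receptor for class A ephrins, was at -0.74, -0.27, -0.58 and -0.81 in CTR and -0.02, -0.02, 0.10 and -0.58 in ONC. ONC4 fell among the CTR channels and CTR2 was the highest of these. In both, most RGC markers stood apart from the other channels of the label, and the part of those cells in this was not tested. The log2 fold change was 0.47 (SE 0.17, adjusted p = 0.189 by limma), and without CTR2 and ONC4 it was 0.73 (adjusted p = 0.0253, and 0.0253 to 0.683 over all alternatives). A higher value is built into that alternative, since it leaves out the highest CTR and the lowest ONC channel of the gene, as it does for Sema6a, Plxnc1, Efna3, Robo2 and Sema6b. Ephb1, which turns axons at the chiasm, was at -2.24, -1.81, -2.39 and -2.43 in CTR and -2.02, -1.78, -1.82 and -1.61 in ONC. It was higher in ONC on 4 of 4 arrays, with a difference of 0.41 on the log2 scale (SE 0.15, adjusted p = 0.191) that was 0.60, and called, without loess.

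Epha2, an Eph receptor also found in epithelia, was at -2.17, -2.25, -1.26 and -1.60 in CTR and -1.73, -1.88, -1.51 and -1.79 in ONC. CTR spanned all of the ONC values. Its log2 fold change was 0.09 (SE 0.21, adjusted p = 0.865), with ONC higher on 2 of 4 arrays, and it was -0.024 without CTR1 and -0.050 without CTR2. Ephb2 was at -3.61, -4.08, -3.61 and -3.04 in CTR and -3.14, -3.94, -2.95 and -2.86 in ONC, a difference of 0.36 on the log2 scale (SE 0.27, adjusted p = 0.529). It was 0.20 without CTR2, 0.54 without CTR4, 0.60 without ONC2 and 0.92, then called, without loess. Without CTR2 and ONC4 together it was only 0.076. Epha3 had the widest range of the family, with -3.93, -4.34, -3.35 and -2.90 in CTR and -3.61, -4.32, -3.61 and -2.88 in ONC. Here the channels of an array moved together, and the log2 fold change was 0.03 (SE 0.36, adjusted p = 0.978). Signal was low, as the Epha3 spot stood at 2.27 to 3.65 times the background in CTR and the Ephb2 spot at 2.51 to 3.03.

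Of 20 semaphorins, 16 passed, 9 higher and 7 lower, with a median log2 fold change of 0.05. Sema6a, a transmembrane semaphorin that binds class A plexins, was at -0.93, -0.55, -0.90 and -0.96 in CTR and -0.16, -0.12, -0.20 and -0.69 in ONC. Labels overlapped only through CTR2 and ONC4. On the 4 arrays ONC was higher by 0.76, 0.43, 0.70 and 0.27. It had the smallest unadjusted p of the members, with a difference of 0.54 on the log2 scale (SE 0.15, adjusted p = 0.11 by limma). The adjusted p was 0.0383 with the array as a block, 0.0129 without CTR2 and ONC4, and between 0.0129 and 0.511 over all alternatives.

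Sema6b, of the same class, was at 1.04, 1.45, 1.24 and -0.00 in CTR and 1.48, 1.32, 1.46 and 0.48 in ONC. Both channels of array 4 were low, and the log2 fold change was 0.25 (SE 0.33, adjusted p = 0.743). Sema3a, a secreted repellent, was at -3.76, -4.29, -3.41 and -3.14 in CTR and -3.80, -4.33, -3.59 and -3.36 in ONC. It was lowest on array 2 in both labels, with a difference of -0.12 on the log2 scale (SE 0.27, adjusted p = 0.862) that turned to 0.55 without loess. The Sema3a spot stood at only 2.33 to 2.91 times the background in CTR. Sema5a, which keeps neurites out of parts of the retina, spanned -1.78 to -1.53 over the CTR channels and -1.71 to -1.39 over the ONC channels, which overlapped (log2 fold change 0.11, adjusted p = 0.62, and 0.041 without ONC4 and 0.16 without CTR4). Without CTR2 and ONC4 together its log2 fold change was 0.018. Sema7a, anchored to the membrane by a lipid, was at 0.20, 0.26, 0.84 and 1.06 in CTR and 0.59, -0.13, 0.59 and 1.03 in ONC, with a difference of -0.07 on the log2 scale (adjusted p = 0.921).

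**Figure D2:**
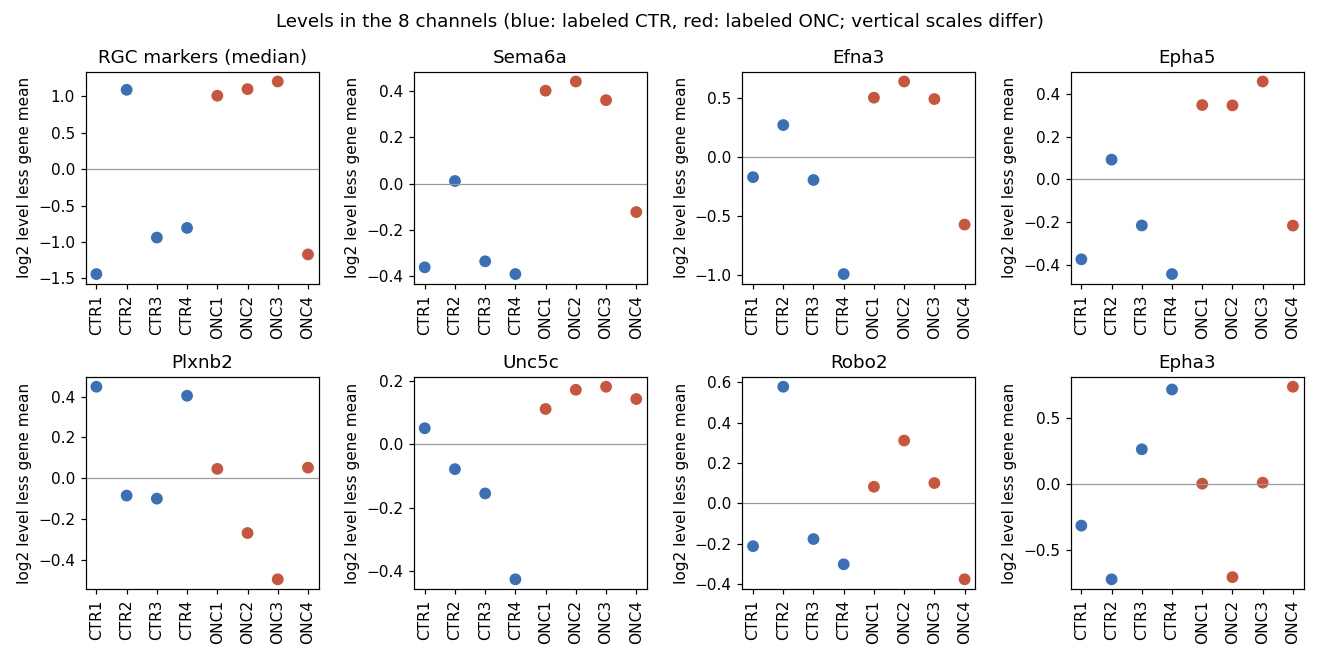
Log2 level in each of the 8 channels (x axis), less the mean of the gene over the channels (y axis, scales differ), for the median RGC marker and 7 guidance genes picked after their values were seen. Blue points are channels labeled CTR and red points those labeled ONC, and for Sema6a and Epha5 CTR2 is the highest CTR channel and ONC4 the lowest ONC channel, as for the median RGC marker.

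Of 10 plexins and neuropilins, 7 passed, 4 higher and 3 lower, with a median log2 fold change of 0.08. Plxnb2, a receptor for class 4 semaphorins, was at -0.18, -0.71, -0.73 and -0.22 in CTR and -0.58, -0.89, -1.12 and -0.57 in ONC. ONC was lower on 4 of 4 arrays, by -0.40, -0.18, -0.40 and -0.35, although the labels overlapped. The log2 fold change of -0.33 (SE 0.18) had an adjusted p of 0.358 by limma, 0.0447 with the array as a block, and 0.0447 to 0.834 over all alternatives. With processed signals the fold change was only -0.13. Plxnc1, the receptor of Sema7a, was at -1.48, -1.04, -1.31 and -1.31 in CTR and -0.88, -0.94, -0.84 and -1.15 in ONC, a difference of 0.33 on the log2 scale (SE 0.12, adjusted p = 0.172). CTR2 was its highest CTR channel and ONC4 its lowest ONC channel, as for most RGC markers, whose part in it was not tested. It was 0.48 without both channels, a rise fixed by which were left out, and 0.40 without loess, and limma called it in either case. Plxnd1, a plexin of blood vessels, was at -1.12 in CTR2 and between -0.64 and -0.47 in the other 7 channels (log2 fold change 0.08, adjusted p = 0.824). Nrp1, a coreceptor for Sema3a, was lowest on array 2, at -4.64 in CTR2 and -4.44 in ONC2, and lay between -4.23 and -3.68 elsewhere (log2 fold change 0.13, adjusted p = 0.815). Without loess it was 0.94 and called. These values come from 1 of its 10 spots, the others having failed the filter, and its probe was not well above background in ONC4.

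Of 7 Slits and Robos, 6 passed, 3 in each direction. Slit1 and Slit2, repellents of RGC axons, differed on the log2 scale by -0.03 (SE 0.10, adjusted p = 0.914) and 0.05 (SE 0.14, adjusted p = 0.88). Slit1 moved by 0.27 over all 8 channels. Slit3 ranged more, from -2.49 in CTR2 and -2.46 in ONC2 to -1.23 in CTR4 (log2 fold change -0.12, adjusted p = 0.863, and 0.03 without loess). Robo2, the main Slit receptor of RGC axons, was at 0.89, 1.68, 0.92 and 0.80 in CTR and 1.18, 1.41, 1.20 and 0.72 in ONC. It was highest in CTR2 and lowest in ONC4, with a difference of 0.06 on the log2 scale (SE 0.21, adjusted p = 0.92) that was 0.40 without both (adjusted p = 0.0822, the lowest over all alternatives). Robo3, the Robo of commissural axons, was at -1.40, -2.02, -0.99 and -0.38 in CTR, while its ONC values lay within -1.65 to -1.57. The CTR values lay on either side of the ONC values, and its log2 fold change was -0.41 (SE 0.29, adjusted p = 0.503), but -0.13 without CTR4 and -0.68 without CTR2. The fold change of Robo3 was also -0.17 without the dim-spot filter and with normexp, and -0.69 without CTR2 and ONC4. Robo1 had a difference of 0.25 on the log2 scale (SE 0.11, adjusted p = 0.269), which was 0.15 without CTR4 and 0.60, then called, without loess.

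Of 8 netrins and netrin receptors, 6 passed, 4 higher and 2 lower, with a median log2 fold change of 0.10. Unc5c, a repulsive netrin receptor, was at -0.17, -0.30, -0.38 and -0.65 in CTR and -0.11, -0.05, -0.04 and -0.08 in ONC. The labels did not overlap, a trait whose share over all genes was not analysed here. ONC was higher on 4 of 4 arrays, but the log2 fold change of 0.30 (SE 0.11) was not called by limma (adjusted p = 0.177). It was 0.13 without the dim-spot filter and with normexp, and 0.21 with processed signals. Dcc, the attractive netrin receptor, was at -3.94, -4.35, -3.83 and -3.49 in CTR and -3.72, -4.35, -3.80 and -3.60 in ONC, a difference of 0.04 on the log2 scale (SE 0.21, adjusted p = 0.948) that was 0.77, and called, without loess. Its spot stood at 2.25 to 2.49 times the background in CTR and was not well above background in ONC4. Ntn4, a netrin of basement membranes, was lower in ONC on 4 of 4 arrays, by -0.26, -0.24, -0.32 and -0.17. Its log2 fold change was -0.25 (SE 0.17, adjusted p = 0.47), turned to 0.13 without loess and was -0.13 without ONC2. The probes of Ntn4 gave -0.09 and -0.41, the first of these from the brighter probe. Ntn5 and Unc5b had log2 fold changes of 0.17 (adjusted p = 0.655) and 0.15 (adjusted p = 0.762), and both were lowest on array 2. Without loess they were 0.96 and 0.94, both called, and Ntn5 was 0.032 without CTR2, 0.072 without ONC4 and 0.29 without ONC2. Their spots stood at only 2.02 to 2.18 times the background in CTR and were well above background in 3 of the 4 ONC channels, ONC4 being the exception.

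The 25 members not named by the rule had log2 fold changes between -0.22 and 0.24. Over the 8 channels the median range of the 52 members was 0.73 on the log2 scale, from 0.12 to 1.64, and that of all genes was 0.57. For 20 of 52 members (38.5%) the lowest channels were CTR2 and ONC2, which share array 2, the array with the highest median foreground in either dye. This held for 17.4% of all genes. The tally was thought of after the values were seen, and the part of the array in it was not tested. CTR2 and ONC2 were also the lowest channels for the median blood (-0.63 and -0.25), endothelial and pericyte (-0.26 and -0.12), rod (-0.15 and -0.21) and cornea and conjunctiva (-0.15 and -0.21) marker, as log2 deviations from the mean of each gene. The part of those cells in the tally was not tested. Relative expression variability, the estimate of the coefficient of variation given in the methods, had a median of 32.9% in CTR and 26.5% in ONC for the members, and 25.1% and 21.7% for all genes.

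Only 7 members had more than 1 probe that passed. The probes differed in sign for Sema4b and Slit2, chosen here after their values were seen. For Sema4b, a semaphorin of the cell surface, the probes gave log2 fold changes of -0.02 and 0.37. Only 1 of 2 probes passed for Epha2, Ephb1, Robo1, Robo2, Robo3, Sema3c, Sema6d and Unc5c.

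Of 60 partners of these receptors that passed, limma called 0 as well, and 1, Nck2, met the criterion of the methods (1.67%, beside 3.13% of all genes). Of 26 co-receptors and adhesion partners 16 passed, 13 higher in ONC and 3 lower, and the median log2 fold change was 0.18. Cntn2, an adhesion protein of axons, was at -2.82, -1.88, -2.71 and -2.70 in CTR and -1.69, -1.66, -1.65 and -2.47 in ONC (log2 fold change 0.66, SE 0.25, adjusted p = 0.208). Its high channels were those of most RGC markers, whose part in it was not tested. Dscam had a difference of 0.36 on the log2 scale (adjusted p = 0.141, with the block 0.034). Of 48 intracellular effectors 44 passed, 24 higher and 20 lower, with a median of 0.02. Enah, an actin regulator, was at -4.69 in ONC1 and between -1.90 and -1.30 in the other 7 channels, so its log2 fold change of -0.82 (adjusted p = 0.55) rests on 1 channel. Nck2, an adaptor protein, had a difference of 0.38 on the log2 scale (SE 0.09, adjusted p = 0.0807, with the block 0.0367). With the block limma called 4 of the 60 partners (6.67%), Dscam, Nck2, Ntng1 (0.35) and Cfl1 (0.36), a share no larger than the 7.69% of all genes.

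**Figure D3:**
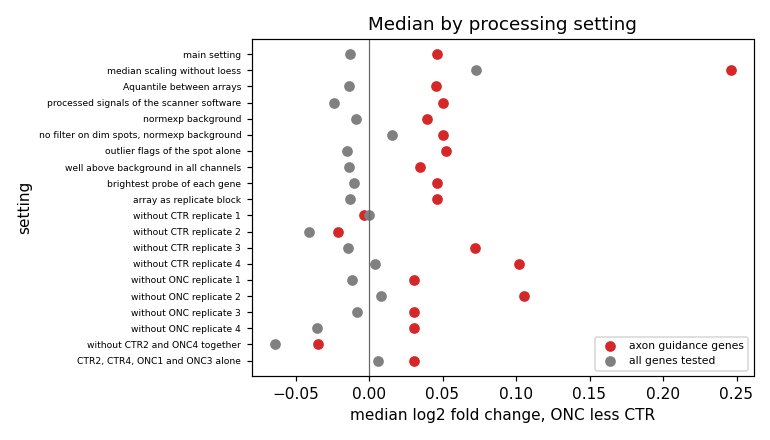
Median log2 fold change (x axis, ONC less CTR) of the guidance genes (red) and of all genes tested (grey) under each processing setting (y axis). The median of the members was 0.05 in the main setting, 0.25 without loess and -0.03 without CTR2 and ONC4. That of all genes was -0.01, 0.07 and -0.06 in the same settings.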

How the data were processed

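The authors deposited intensity values per spot from Agilent Feature Extraction (version 12.0.3.1 by the headers, 11.1.19.1 by the submitters' processing notes): mean foreground, median local background and a processed signal. Deposited flags of the scanner software (other values) mark outlier spots and spots well above background. Controls, spots with an outlier flag (of the spot, or a non-uniform background) and spots under 2 times background in any channel were left out, leaving 27371 spots and 18599 probes. Background was subtracted, arrays were normalized by loess and channels centered on their median, and spots, then probes, were averaged on the log2 scale. All adjusted p are from limma 3.58.1 in R 4.3.3, two-sided, after a test on simulated data. Benjamini-Hochberg adjustment was over the genes tested in each setting, which were 16307 in the main setting and most others. They were 25942 without the dim-spot filter and with normexp, 16422 with the outlier flags of the spot alone and 15324 with spots well above background. Tables and figures used Python 3.11.15, pandas 2.3.3, scipy 1.17.1 and matplotlib 3.10.9. The members and lists were chosen with earlier results of these data known. Named singly are members called with or without the block, the 2 largest fold changes and the 2 widest ranges of each family, and members known from retinal guidance or named by the study. Same-numbered channels share an array by the labels, and their deviations from the label means correlated over genes at 0.15, 0.55, 0.40 and 0.49. Channels of unlike number lay between -0.51 (CTR2 and ONC4) and 0.17 (CTR1 and ONC2), the latter above the 0.15 of CTR1 and ONC1. Over genes, the log ratios of the arrays correlated positively for all pairs. The array number limits precision.

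Marker lists were checked by channel, as the median deviation from the mean of each gene. The lowest and highest channels were -1.44 (CTR1) and 1.20 (ONC3) for RGC markers, -0.64 (ONC3) and 1.22 (CTR2) for lens, -0.86 (ONC2) and 0.59 (CTR4) for pigment epithelium and -0.63 (CTR2) and 0.47 (ONC1) for blood. They were -0.33 (CTR2) and 0.56 (CTR4) for microglia, -0.25 (ONC4) and 0.42 (CTR3) for astrocytes, -0.23 (ONC2) and 0.27 (CTR4) for Müller glia and -0.18 (ONC1) and 0.25 (CTR2) for cones. Rods spanned -0.21 (ONC2) to 0.15 (CTR1), endothelial cells and pericytes -0.26 (CTR2) to 0.24 (CTR4), oligodendrocytes -0.25 (CTR2) to 0.14 (ONC4) and cornea and conjunctiva -0.21 (ONC2) to 0.16 (CTR1). Amacrine markers spanned -0.08 (ONC2) to 0.11 (ONC4), bipolar -0.19 (CTR2) to 0.19 (ONC3) and horizontal -0.17 (ONC4) to 0.12 (CTR1).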

Additional observations from a re-analysis of the deposited data

Results flagged for a closer look

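Within a label of 4 channels, 11 values stood far from the other 3 among 56 groups tested. Chance gives about 1 in 20 groups, but these genes were in part named for wide ranges or large fold changes, so no excess is read from the count. In ONC4, Efna3 was at -1.56, Epha5 at -0.58, Sema6a at -0.69, Sema6b at 0.48 and the median RGC marker at -1.17, all low. In CTR2, Robo2 at 1.68 and Sema6a at -0.55 were high, while Ntn5 at -4.54, Plxnd1 at -1.12 and Unc5b at -4.62 were low. In ONC2, Unc5b was low at -4.51. The part of the RGCs or of the array in these values was not tested.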

How the results depend on the processing

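The count of guidance genes called was 0 in most settings, but 13 with median scaling without loess, all higher in ONC (19.6% of all genes, 3194, were called there, 71.0% of them higher, against 46.9% of the 81 calls), 3 with the array as replicate block, 3 without CTR2 and ONC4 (Epha5, Plxnc1 and Sema6a, for each of which these are the highest CTR and lowest ONC channels, so that a higher value is built in and nothing is read from the count; 5.77%, beside 2.54% of all genes), and 3 by the methods' t-test at the methods' threshold. Over all genes the count was 412 with Aquantile, 21 with processed signals and 14 with normexp. It was 0 without the dim-spot filter and with normexp, both changed at once (1956 at an unadjusted p under 0.05). Further counts were 123 with spots well above background, 124 with the brightest probe, 1254 with the replicate block and 415 without CTR2 and ONC4. In the 4 channels given the same dye by both sources it was 0 (1961 unadjusted), and dye and condition cannot be told apart there either. By the methods it was 2682 (t-test), 0 (after adjustment) and 510 (criterion). Leaving out a channel gave 0 to 38 (38 without ONC2) and 0 guidance genes. At an unadjusted p under 0.05 it gave 3 to 8 of the 52 members, beside 2085 to 3252 of all 16307 genes. The block changed no other call among the guidance genes. Of 60 partners, 12 (20.0%) were called without loess, 4 (6.67%) with the block and 1 (Cntn2, 1.67%, of which the same holds) without CTR2 and ONC4, beside 19.6%, 7.69% and 2.54% of all genes. The median of the members was 0.25 without loess, -0.034 without CTR2 and ONC4, and -0.021 to 0.11 with a channel left out. That of all genes was 0.073 without loess, -0.064 without CTR2 and ONC4, and -0.041 to 0.0079 with a channel left out. The median range of the members was 0.93 without loess, 0.61 with Aquantile and 0.61 without the dim-spot filter and with normexp. It was 0.61 in the 4 channels, and 0.66 to 0.73 with a channel left out. A range over fewer channels can only stay or shrink, so nothing is read from the values with fewer channels. Only the outlier flags of the spot alone were an unplanned alternative, chosen after seeing the data. Run first and replaced when background flags proved part of the filter, they gave 80 genes and 0 members. The setting without CTR2 and ONC4 was planned, but it leaves out channels in which most RGC markers stood apart from the others of the label. The methods' t-test was first run on mean linear spot values, then on the linear form of the fitted gene values.

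Direction turned without loess for Ntn4 (0.13), Sema3a (0.55) and Slit3 (0.034); with processed signals for Dcc (-0.15), Epha3 (-0.089), Nrp1 (-0.050), Ntn5 (-0.063), Sema7a (0.035) and Slit1 (0.036); without the dim-spot filter and with normexp for Dcc (-0.018), which was 0.017 with normexp alone; and with the brightest probe for Slit2 (-0.022). Without CTR2 and ONC4 it turned for Dcc (-0.20), Epha2 (-0.028), Epha3 (-0.45), Nrp1 (-0.15), Ntn5 (-0.066), Plxnd1 (-0.10) and Unc5b (-0.10), and in the 4 channels for Robo2 (-0.046), Sema3a (0.016), Sema5a (-0.018), Slit1 (0.044), Slit2 (-0.10) and Slit3 (0.027). With a channel left out the ranges that crossed 0 were -0.12 to 0.20 for Dcc, -0.050 to 0.28 for Epha2, -0.22 to 0.27 for Epha3, -0.027 to 0.28 for Nrp1, -0.074 to 0.14 for Plxnd1, -0.036 to 0.26 for Robo2, -0.33 to 0.064 for Sema3a, -0.058 to 0.49 for Sema6b, -0.24 to 0.15 for Sema7a, -0.080 to 0.011 for Slit1, -0.049 to 0.14 for Slit2, -0.34 to 0.084 for Slit3 and -0.015 to 0.34 for Unc5b. The cause was not tested. Low signal over background limits the dim members, among them Dcc, Nrp1, Ntn5, Sema4c and Unc5b, which passed but were not well above background in ONC4.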
